A study of Homo sapiens with 4 samples.

Results

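The expression of 7 cytosolic chaperone genes was followed after HRP2 knockdown in LP-1 cells: HSPA8, HSPA1B and HSPA6 of the HSP70 family, HSPH1 and HSPA4L of the HSP110 family, and DNAJB1 and DNAJA1 of the HSP40 family. They were taken by symbol from the authors' deposited gene table (7 of its 684 genes) and transcript table (6 of its 1040 transcripts), having been picked with their values in this comparison known, so their direction and size are a description and not a test. LP-1 is an established multiple myeloma line, labelled a B lymphoblast. Its 4 RNA sequencing libraries fell into 2 of HRP2 knockdown cells, made with a lentiviral sgRNA against HRP2 (the chromatin reader encoded by HDGFL2), and 2 of non-target control cells grown in the same medium. The labels do not say whether the sgRNA edited or repressed its target, whether the line was cloned, or whether replicate libraries stem from different cultures; if they do not, the spread behind a Q value is only technical. Fold changes give no expression level, so the line could not be checked against plasma cell markers.

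HSP70 proteins bind exposed hydrophobic stretches of client proteins in a cycle driven by ATP. HSP40 proteins, which carry a J-domain, deliver clients and stimulate ATP hydrolysis by HSP70, and HSP110 proteins are large relatives of HSP70 that release its ADP and so restart the cycle. Many of these genes are induced under proteotoxic stress by heat shock factor HSF1, which binds heat shock elements, arrays of the 5-base unit NGAAN in alternating orientation. Myeloma cells, which secrete large amounts of immunoglobulin, carry a high protein folding load, and proteasome inhibitors, the drugs in the series title, are known inducers of the heat shock response. The treatment labels of the libraries used here name only HRP2 knockdown or non-target control, and no drug.

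The promoter sequences are shown because they hold a feature of these genes that can be read without the expression values. The genes themselves were picked on those values, from families in which many genes are induced by HSF1. Their share of elements is therefore a description and not separate support. Heat shock elements of 3 units (GAA-NN-TTC-NN-GAA or its reverse complement TTC-NN-GAA-NN-TTC, which together cover both strands) were searched in the RefSeq promoter windows of build GRCh38.p14, from 250 bases before to 50 bases after each annotated start. All 7 genes had a window, 11 windows in all, since HSPA4L and DNAJB1 have 3 annotated starts each. Such an element was found in 3 of the 7 genes, HSPA8, HSPA6 and DNAJA1, against 166 of the 27305 genes with a window (0.608%). HSPA8 held 2 elements, and HSPA6 and DNAJA1 held 1 each. In the sites below, each written 5′ to 3′ on the strand of the gene, capitals mark the fixed letters of the element.
HSPA8 distal, chr11:123062346-123062375, minus strand: ggcgagcttGAAagTTCcaGAAcgctgcgg
HSPA8 proximal, chr11:123062171-123062200, minus strand: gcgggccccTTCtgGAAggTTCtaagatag
HSPA6, chr1:161524457-161524486, plus strand: gcggaaaggTTCgcGAAagTTCgcggcggc
DNAJA1, chr9:33025267-33025296, plus strand: cgccgggcgGAActTTCcaGAAcgctcggt

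With the first transcribed base counted as 0, the HSPA8 elements began at positions -230 and -55 and that of HSPA6 at -74, while the DNAJA1 element began at position 3, within the transcript. The start of HSPA8 depends on the annotation, since GENCODE 29 begins the transcript that it pairs with NM_006597.5 at position -199 of the RefSeq start used here. That places the proximal element downstream of the GENCODE start and the distal one upstream of it.

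A looser search for 2 inverted units (GAANNTTC or TTCNNGAA, each of which also occurs inside a 3-unit element) found a match in 6 of the 7 genes, HSPH1 being the exception, but also in 16.2% of all genes with a window. HSPA1B, HSPA4L and DNAJB1 held such pairs without a 3-unit element, that of HSPA4L beginning at position -170 of the second of its 3 annotated starts. The DNAJB1 pairs shown began at positions -77 and -47 of the second of its 3 annotated starts.
DNAJB1 first pair, chr19:14518456-14518485, minus strand: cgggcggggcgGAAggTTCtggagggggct
DNAJB1 second pair, chr19:14518426-14518455, minus strand: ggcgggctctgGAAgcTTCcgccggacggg

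The upstream regions of the stress-inducible genes HSPA6 and HSPA1B are printed over 220 bases, ending before the transcript begins, with the fixed letters of every 2-unit and 3-unit match in capitals. HSPA6 carried a separate pair far upstream and the complete element close to the start, and HSPA1B carried a single pair. The HSPA1B region differed little from that of its twin gene HSPA1A, with which it was identical at 235 aligned bases of the 250 upstream (93.6% identity, 14 mismatches and 2 gaps).
HSPA6, chr1:161524290-161524509, plus strand: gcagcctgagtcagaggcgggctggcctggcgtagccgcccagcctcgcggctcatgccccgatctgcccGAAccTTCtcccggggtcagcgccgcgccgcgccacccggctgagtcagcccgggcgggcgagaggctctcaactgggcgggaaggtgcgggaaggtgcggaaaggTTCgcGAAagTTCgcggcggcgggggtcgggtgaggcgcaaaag
HSPA1B, chr6:31827488-31827707, plus strand: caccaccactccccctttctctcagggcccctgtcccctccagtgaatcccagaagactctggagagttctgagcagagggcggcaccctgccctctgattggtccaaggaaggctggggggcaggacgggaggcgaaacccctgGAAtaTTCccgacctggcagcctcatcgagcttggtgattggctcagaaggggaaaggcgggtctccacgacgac

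**Figure D1:**
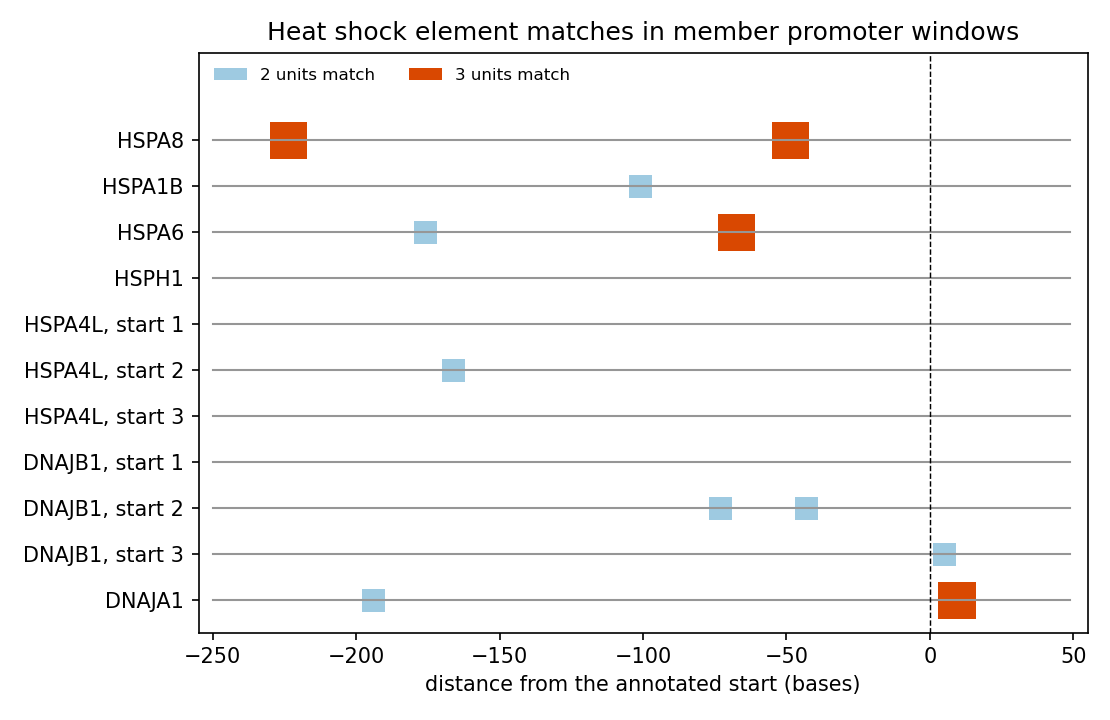
Positions of heat shock element matches in the promoter windows of the 7 genes, in bases from the annotated start (dashed line), with 3-unit matches in orange and further 2-unit matches in blue. Only HSPA8, HSPA6 and DNAJA1 hold a 3-unit match among the 11 windows, and HSPH1 holds neither kind.

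The constitutive HSP70 gene HSPA8, whose product HSC70 is abundant in unstressed cells, had the largest change of the 7 genes. Its log2 fold change was 1.69 (Q = 8.21e-14) in the authors' deposited gene table, or 3.23 times the control level. This Q value was the lowest of the 684 genes, ahead of the targeted gene itself, HDGFL2, which ranked 2 with a log2 fold change of -1.37 (Q = 2.99e-13) in the authors' deposited table. By log2 fold change HSPA8 ranked 9 among the higher genes. The RNA came from bulk cells, so a rise in every cell and a larger share of cells with high levels cannot be told apart. The stress-inducible HSP70 gene HSPA1B stood at a log2 fold change of 1.23 (Q = 1.29e-09), 2.34 times the control level, in the authors' deposited table. HSPA6, an HSP70 gene that is nearly silent without stress in most cells, had a log2 fold change of 1.45, 2.73 times the control level, with the weakest support of the 7 (Q = 0.0144, authors' deposited table). It thus ranked 12 by log2 fold change but only 318 by Q value.

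The HSP110 genes encode exchange factors for HSP70. HSPH1, also called HSP105, stood at 1.41 on the log2 scale in the authors' deposited table, 2.66 times the control level, and ranked 3 by Q value (Q = 7.64e-13). HSPA4L, also called APG-1, had the smallest change of the 7 genes, 0.92 on the log2 scale or 1.89 times the control level (Q = 0.00168, authors' deposited table), and was the only one of them under a log2 fold change of 1.

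The HSP40 genes were close to each other in size. DNAJB1, the class B co-chaperone that works with HSP70 in refolding and disaggregation, had a log2 fold change of 1.15 (Q = 4.06e-11) in the authors' deposited table, 2.22 times the control level. DNAJA1, a class A co-chaperone, had 1.21 (Q = 2.98e-10), 2.31 times the control level, in the same deposited table. Since the tables carry no standard error and no value per library, the differences among the 7 genes could not be tested, and whether the groups overlap in any library is not known.

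The median log2 fold change of the 7 genes was 1.23, against 0.66 for all 361 higher genes of the authors' deposited table. Among the called genes 52.8% were higher, and 8.48% were higher with a log2 fold change of at least 1, as 6 of the 7 genes were. Because these genes were chosen on this contrast, nothing is read from their count. Of the 24237 mRNA genes listed by the authors 2.81% were called. How many of them were tested is not given in the sources used here.

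**Figure D2:**
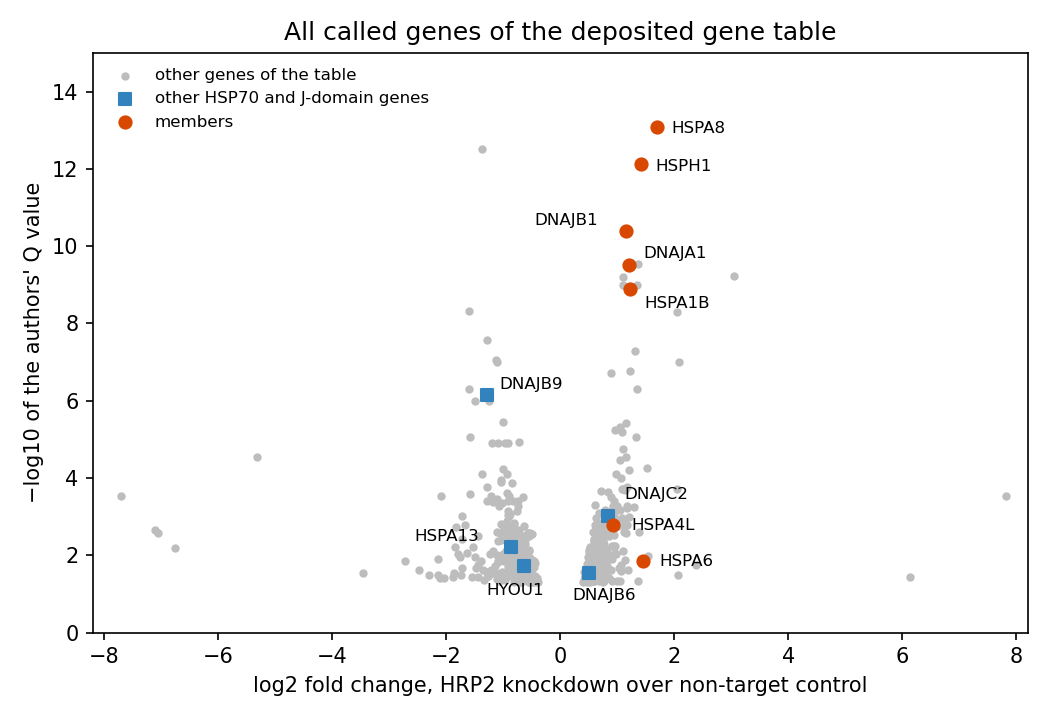
All 684 genes of the authors' deposited gene table, with the log2 fold change of HRP2 knockdown over non-target control on the x axis and −log10 of the authors' Q value on the y axis. HSPA8, HSPH1, DNAJB1, DNAJA1 and HSPA1B (orange) are at the top right, HSPA4L and HSPA6 lie among the bulk of higher genes, and the related genes DNAJB9, HSPA13 and HYOU1 (blue squares) are on the left.

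Transcript values were deposited for 5 of the 7 genes, and all 6 called transcripts were higher in the knockdown. Higher transcripts made up 51.0% of all 1040 in the authors' deposited table. HSPA8 had 2 called transcripts: NM_006597.5, the transcript of the full-length protein, stood at a log2 fold change of 1.51 (Q = 2.66e-08), and the model transcript XM_011542798.1 at 1.78 (Q = 1.79e-07) in the authors' deposited transcript table. The gene value of 1.69 lay between them. For DNAJA1 and HSPA1B the called transcript and the gene gave nearly the same value. In the authors' deposited transcript table NM_001539.3 of DNAJA1 had a log2 fold change of 1.23 (Q = 0.000123), and NM_005346.4 of HSPA1B had 1.23 (Q = 0.000142). HSPA1B has a single RefSeq transcript, and the transcript value differed from the gene value by 0.0034 on the log2 scale, while its Q value was far larger at the transcript level.

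The gap between gene and called transcript was wider for HSPH1 and HSPA4L than for the other 3 genes with a called transcript. The model transcript XM_011534887.3 of HSPH1 had a log2 fold change of 2.34 (Q = 3.49e-07) in the authors' deposited transcript table, 5.06 times the control level and 0.93 above the gene on the log2 scale. NM_001317382.1 of HSPA4L had 1.97 (Q = 0.0241) in that deposited table, 3.93 times the control level and 1.05 above the gene. RefSeq now lists 12 transcripts for HSPH1 and 5 for HSPA4L. The others were not in the table and have no value here, so a difference in fold between transcripts of a gene was not tested. GENCODE 29 pairs NM_001317382.1 with a transcript of 19 exons and 2639 nucleotides that begins 26 bases after the third of the annotated HSPA4L starts. None of its 3 windows held a 3-unit element.

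No transcript of DNAJB1 or HSPA6 was called, although RefSeq lists 7 for DNAJB1 and 1 for HSPA6. None of the 6 called transcripts reached an absolute log2 fold change of 6, a size that 823 of the 1040 transcripts in the authors' deposited table did reach.

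**Figure D3:**
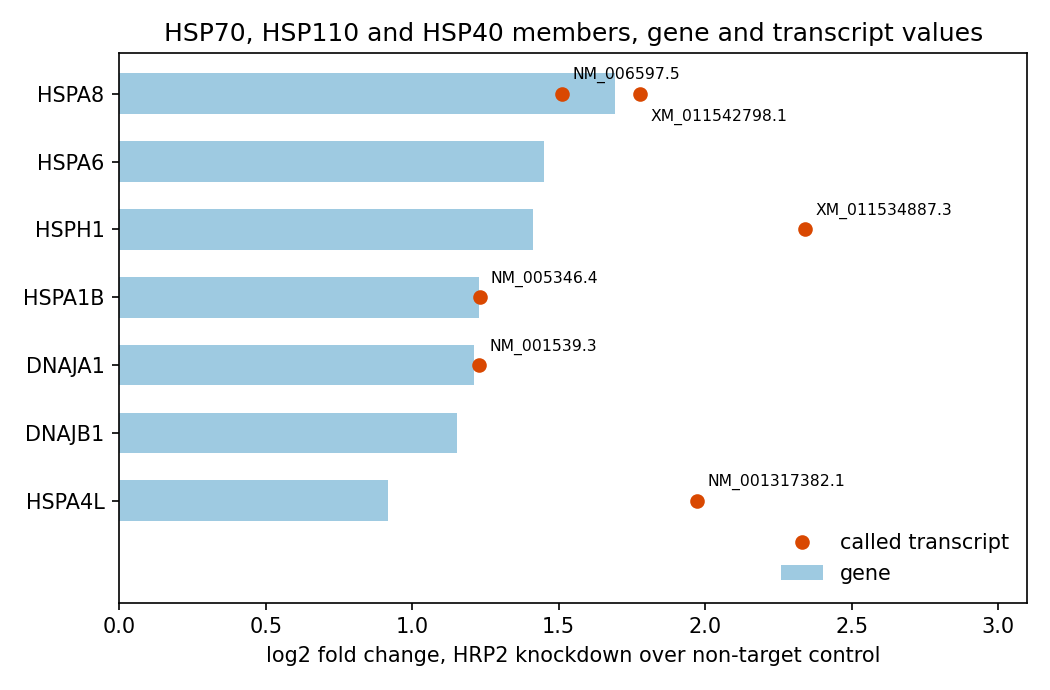
Log2 fold changes of HRP2 knockdown over non-target control for the 7 genes (bars) and their called transcripts (points), from the authors' deposited tables and without error bars because none were deposited. The points of HSPA1B and DNAJA1 sit at the end of their bars, those of HSPH1 (2.34) and HSPA4L (1.97) lie well beyond theirs, and HSPA6 and DNAJB1 have no point.

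From the HSP70 and HSP110 superfamily of 16 genes, 7 appeared in the authors' deposited table, 5 higher and 2 lower, against 2.81% called of all listed mRNA genes and 52.8% higher among the called. The higher ones were the cytosolic genes described above, which were chosen on this contrast, so the count is read only for the 11 other genes, of which 2 were called. The lower ones were HYOU1, which encodes the HSP110 relative of the endoplasmic reticulum, at -0.64 (Q = 0.0184), and HSPA13, which encodes an HSP70 relative of the microsomal compartment, at -0.87 (Q = 0.00619) on the log2 scale. The other 9 genes of the superfamily were not in the table, among them HSPA1A, HSPA4, the endoplasmic reticulum chaperone gene HSPA5 (BiP) and the mitochondrial HSPA9. Genes outside the table have no value here and are not shown to be unchanged.

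The J-domain family of 49 genes had 5 in the authors' deposited table, 4 higher and 1 lower, where 2.81% of all listed mRNA genes were called and 52.8% of those called were higher. Without DNAJB1 and DNAJA1 there were 3 called of 47. Beside DNAJB1 and DNAJA1 the higher genes were DNAJC2, which encodes a ribosome-associated J-protein, at 0.83 (Q = 0.000953), and DNAJB6, a suppressor of protein aggregation, at 0.51 (Q = 0.0286) on the log2 scale. The lower one was DNAJB9, an endoplasmic reticulum J-protein gene, with a log2 fold change of -1.28 (Q = 7.28e-07) in the authors' deposited table and -1.28 (Q = 0.0288) for its transcript NM_012328.2. The class C gene GAK was called only as transcripts, at 8.64 and 22.80 on the log2 scale in the authors' deposited transcript table. Values of 6 or more in size occurred in 823 of the 1040 called transcripts, so these are not read as a change of the gene. The remaining 44 genes, among them DNAJA2 and DNAJB4, were not in the gene table.

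Genes that act with HSP70, or that are induced with it, were higher in 13 of the 14 cases called out of 62, against 52.8% higher among all called genes and 2.81% called of all listed mRNA genes. This list, too, was chosen with earlier results of these data known. The 13 higher genes had a median log2 fold change of 0.81, against 0.66 for all 361 higher genes of the authors' deposited table. Of 10 exchange factor genes outside HSP110, 3 were called: BAG2, whose product also inhibits the ubiquitin ligase CHIP, at 0.81 (Q = 0.00226), GRPEL1, the mitochondrial exchange factor gene, at 0.77 (Q = 0.0187) and BAG4 at 0.67 (Q = 0.0235) on the log2 scale. BAG3, the stress-inducible member of that family, was not in the authors' deposited table. The genes of HSP90 and of the adaptor that passes clients to it from HSP70 were higher as well, with log2 fold changes of 1.16 for HSP90AA1 (Q = 3.66e-06), 0.59 for HSP90AB1 (Q = 0.00403) and 0.62 for the adaptor gene STIP1 (Q = 0.00404) in the authors' deposited table.

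Among chaperonins, the mitochondrial HSPE1 stood at 1.07 (Q = 0.0001), and CCT5 and TCP1, subunits of the cytosolic chaperonin, at 0.68 and 0.57 on the log2 scale in the authors' deposited table. HSPD1, the partner of HSPE1, was called only as transcript NM_199440.1, at 11.40, and TRAP1, the mitochondrial HSP90 gene, only as XM_011522345.2, at 2.54, in the authors' deposited transcript table. HSPB1 was the only one of 10 small heat shock protein genes called, at 0.85 (Q = 0.000963, authors' deposited table). Of the 15 textbook heat shock factor targets outside HSP70 and J-domain genes, 6 were called, 5 higher and 1 lower. They included CHORDC1 at 1.35, FKBP4 at 1.34 and AHSA1 at 1.08, each a gene of an HSP90 co-chaperone. Of all listed mRNA genes 2.81% were called, and 52.8% of the called genes were higher. The lists of this paragraph were also chosen with earlier results of these data known, so their counts are descriptions. None of the 8 heat shock factor and regulator genes was called as a gene. HSF1 was called as 1 model transcript, XM_005272315.3, at -10.17 on the log2 scale (Q = 2.45e-06, authors' deposited transcript table). Of the 1040 called transcripts, 823 reached 6 or more in size on this scale. The transcript values of HSF1 and HSPD1 are therefore not read as changes of the genes.

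**Figure D4:**
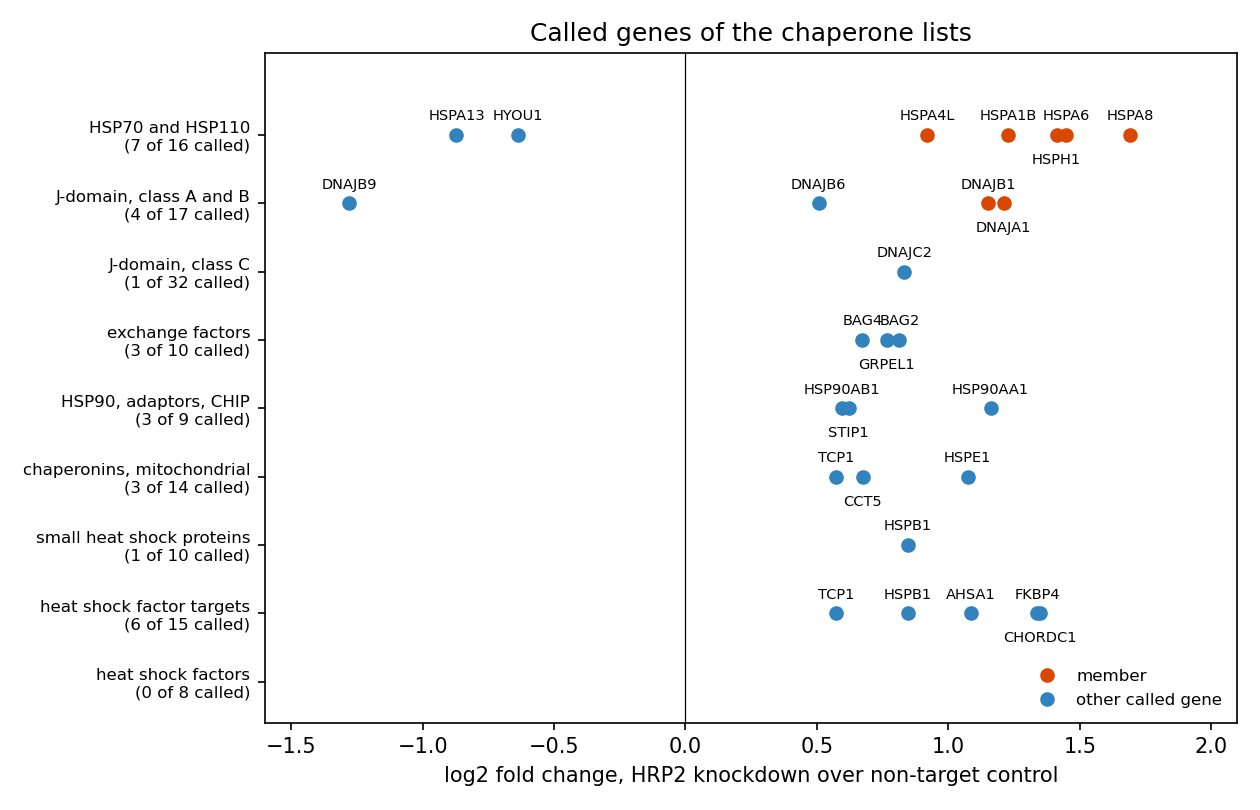
Log2 fold changes of HRP2 knockdown over non-target control for the called genes of 9 chaperone and heat shock lists, 1 heat shock factor target excepted, from the authors' deposited gene table, with the number called of the number listed beside each list. All genes drawn lie right of 0 except HSPA13, HYOU1 and DNAJB9, and TCP1 and HSPB1 appear in 2 lists.

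Base composition moved with direction in the whole table, and these 7 genes were spread across it. The median transcript GC content was 46.7% for higher and 57.4% for lower called genes. HSPH1, HSPA4L and DNAJA1, at 39.95%, 40.57% and 41.71% GC, fell in the lowest quartile of GC content, in which 125 of the other 167 genes were higher (74.9%). HSPA8, at 47.0%, lay in the second quartile, with 123 of 168 other genes higher. DNAJB1 (55.8%) and HSPA6 (58.4%, the top of its quartile) lay in the third quartile, with 78 of 167 other genes higher. HSPA1B (58.7%) lay in the highest quartile, in which only 24 of the other 168 genes were higher (14.3%). GC content was taken as the median over coding transcripts. The median length of these was only 597 nucleotides for DNAJB1 (10 transcripts) and 1048 nucleotides for HSPA8 (17 transcripts). The part of GC content in these results was not tested.

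**Figure D5:**
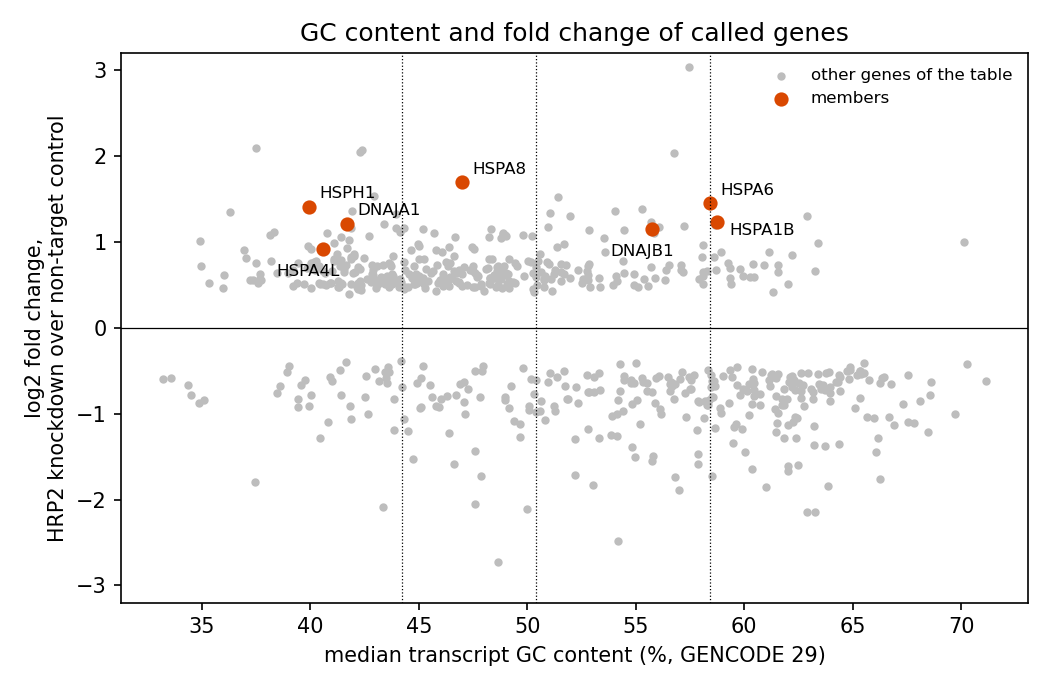
Log2 fold change of HRP2 knockdown over non-target control against median transcript GC content for the 677 called genes with a GC value, dotted lines marking the quartiles; 7 genes beyond 3.2 on the log2 scale are outside the axis. HSPH1, HSPA4L and DNAJA1 lie in the lowest quartile, where most genes are higher, and HSPA1B in the highest, where most are lower.

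Copies of these genes bear on how firmly each value can be tied to 1 gene. Of the 31-base words in the longest coding transcript of HSPA1B, 74.4% also occurred in other genes, mostly in HSPA1A (73.1%), which was listed by the authors but was not in the gene table. HSPA6 shared 56.7%, nearly all of it with the pseudogene HSPA7, and HSPA8 shared 41.1%, all of it with non-coding copies, led by the pseudogene HSPA8P1 (15.7%). DNAJA1 and DNAJB1 each shared 7.8%, nearly all of it with a pseudogene. The shares of HSPA4L (7.9%) and HSPH1 (0.33%) were spread over 5663 and 214 other genes and are not read as copies. None of the copies named here was in the gene table. How reads were divided between copies is not given in the sources used here, and its part in the values of HSPA1B, HSPA6 and HSPA8 was not tested.

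The 7 genes lie on 7 chromosomes, and their gene structures differ. HSPA1B and HSPA6 have a single exon, whereas the longest coding transcripts of HSPA8 and DNAJA1 have 9 exons, that of HSPH1 has 18 and that of HSPA4L has 19. None of the 28 nearest protein-coding genes, 2 on either side of each, was in the authors' deposited gene table. Only 2.81% of all listed mRNA genes were called, so nothing is read from this count. Other genes overlap 3 of the 7 loci: 3 small nucleolar RNA genes within HSPA8, a pseudogene and a predicted coding gene within HSPA4L, and TECR and a microRNA gene at DNAJB1. None of these overlapping genes was called, from which nothing is read either. Whether counting used strand is not given in the sources used here.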

How the data were processed

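Libraries of 2 HRP2 knockdown and 2 non-target control samples of LP-1 cells were made from Trizol RNA with BGI protocols, as the labels state. BWA, Bowtie2 and RSEM and the build hg19 are listed, without roles, in the submitters' processing notes. Not given in the sources used here were versions, annotation, normalization and the authors' test. Both the log2 fold changes and the Q values were deposited by the authors, per the file headers, and every deposited Q value was under 0.05. No value per library was used, so depth is unknown and the planned fits on libraries, with or without the replicate number, were not made.

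The genes and gene lists were chosen with earlier results of these data known. All 7 genes and the called genes of the lists are named, except 1 that is counted but not reported here, and HDGFL2, HNRNPA2B1 and PRKD2 were added after values were seen. Gene IDs were matched to RefSeq (GRCh38.p14) and GENCODE 29 with Python 3.11.15 and pandas 2.3.3. GC content is the median over coding transcripts. Sharing is the percent of 31-base words found in another gene's transcripts. Promoter alignment used biopython 1.88. Motif and word searches were tested on simulated data. Builds were not mixed, and no hg19 coordinate is given.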

Additional observations from a re-analysis of the deposited data

How the results depend on the processing

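No paired analysis was possible because the deposited tables hold no value per library, and for the same reason no library could be left out. The threshold was set to a Q value under 0.01 (HSPA6 lost) or a log2 fold change of 1 or more in size (HSPA4L lost). Separately, genes sharing at least 50% of their 31-base words were left out (HSPA1B and HSPA6 lost), which kept HSPA8 at 41.1%. Last, the called transcript with the lowest Q value was taken in place of each gene (HSPA6 and DNAJB1 lost). Under each setting 5 or 6 of the 7 genes remained and all were higher. Apart from the use of transcripts, the settings only drop genes and keep their values, so no direction could change there. The median log2 fold change of the genes that remained moved from 1.23 to 1.22, 1.32, 1.21 and 1.51 under these settings in that order. At a log2 fold change of 1 or more in size, the called genes fell to 4 of the HSP70 and HSP110 superfamily (against 7), 3 of the J-domain family (against 5) and 5 of the partner genes (against 14); a stricter threshold can only lower a count. With transcripts in place of genes there were 4 in the superfamily and 3 in the J-domain family (DNAJA1, DNAJB9 and GAK, the last called only as transcripts); the cause was not tested. Under both settings the superfamily had 4 higher and 0 lower genes, against 5 and 2, since neither HYOU1 nor HSPA13 met them. Of the 25 called genes of the lists named in the text, 19 kept a Q value under 0.01, and all 13 with a called transcript had the direction of the gene there. The transcript values counted included 10.98 for AHSA1 and 26.37 for HSP90AB1, against gene values of 1.08 and 0.59. The other called transcript of each gene lay nearer the gene value, at 0.95 for AHSA1 (Q = 0.0170) and 0.81 for HSP90AB1 (Q = 0.00377) in the authors' deposited transcript table. Genes and transcripts came from the same libraries. With transcripts in place of genes the partner list had 9 higher and 2 lower, against 13 and 1. HSPD1 and TRAP1 among the higher and HSF1 among the lower were called only as transcripts. The values of HSPD1 and HSF1 are not read as changes of the genes. A 3-unit element stood in 3 of the 7 genes, in 2 when only upstream bases were searched (DNAJA1 lost), and in 6 with 2 inverted units. It stood in 6 with 1 mismatch allowed, an alternative chosen after seeing the data, which 7.6% of all genes with a window also met.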

Other observations

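The 3-unit heat shock element was also searched in the promoter windows of called genes outside the 7 chaperones. Of the 288 other higher genes with a window 5 held one (1.74%), against 1 of 256 lower genes (0.391%) and 0.608% of all 27305 genes with a window. The 5 were CHORDC1, HSP90AA1, HSP90AB1, DNAJB6 and HNRNPA2B1, which encodes an RNA-binding protein and had a log2 fold change of 0.66 (Q = 0.00168) in the authors' deposited table. The lower gene was PRKD2, which encodes a protein kinase D isoform, at -0.60 (Q = 0.0175, authors' deposited table). HNRNPA2B1 and PRKD2 were singled out after their values were seen. With 1 mismatch allowed, a match stood in 6.94% of the other higher, 6.64% of the lower and 7.60% of all genes with a window. With 2 inverted units the shares were 14.9%, 12.9% and 16.2%. In both looser searches the other higher genes lay below the share of all genes. All these shares are descriptions of the sequence windows, and no test was made of them.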
